A study of Mus musculus with 90 samples.

Results

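Menin peaks that lie beside a region of trimethylated lysine 4 of histone H3 (H3K4me3), but on neither that mark nor a peak of the methyltransferase Mll2, were examined in V6.5 cells, a mouse embryonic stem (ES) cell line. The members were autosomal Menin peaks that overlapped no peak of either H3K4me3 library and none of either Mll2 library, and whose edge lay at most 10 kb from the edge of a merged H3K4me3 region. A merged region is a run of overlapping peaks that holds a peak of both H3K4me3 libraries, and there were 18336 on the autosomes. Of 43544 Menin peaks in all, 42973 were autosomal, 17540 of those overlapped no H3K4me3 or Mll2 peak and are called Menin-only below, and 9429 were members. The remaining 8111 Menin-only peaks lay farther away and are called distal. The peak calls of all 5 libraries chose the members, so their absence from the H3K4me3 and Mll2 lists and their nearness to H3K4me3 are no results.

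The study, with 90 samples, asked how Mll2 contributes to H3K4me3 in embryonic stem cells and during germ cell specification, and 5 chromatin immunoprecipitation (ChIP-seq) libraries were used here. The H3K4me3 libraries, replicates 1 and 3, were labelled wild type and came from cells infected with a lentiviral control hairpin against GFP. The Mll2 libraries, made with serum 9172 and serum 9175, and the Menin library came from wild-type cells with no hairpin in their labels. All were grown with serum and LIF, and H3K4me3 was therefore not measured in the cells used for Menin or Mll2. Menin and each Mll2 serum had 1 library, and it is not stated in the labels if both H3K4me3 replicates were grown independently. No test between conditions or replicates was possible for Menin. The intervals below are 95% intervals that cover counting over peaks or regions and not the spread between cultures. After removal of duplicates the libraries kept 11550409 tags for Menin and from 12277583 to 21936546 for the others, so a site outside a list was not called at that depth and is not a site without signal. Peak lists hold no expression values, so the cell type was not checked against marker genes.

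Menin is a scaffold protein that binds the methyltransferases Mll1 and Mll2, anchors them in their COMPASS-like complexes and helps bring these to chromatin. Mll2 reaches CpG-rich promoters through its CXXC domain and deposits H3K4me3 there, among others at promoters held ready for later activation. H3K4me3 forms islands over promoters, and the ground beside such an island often carries lower methylation states of the same lysine, which none of these lists measures.

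Menin-only peaks lay closest to H3K4me3 in the shortest distances and thinned out steadily over 10 kb. The nearest kb beside the regions held 2224 of them, the next kb 1359, the third 1049 and the last kb within the limit 483. As a share of all Menin-only peaks this was 12.7% (12.2 to 13.2%) within 1 kb and 2.75% (2.52 to 3.01%) from 9 to 10 kb. The background of the neighbourhood was described by moving the same peaks by 20 fixed offsets of 50 to 500 kb to either side, and by leaving out moved peaks that hit an H3K4me3 or Mll2 peak. At these offsets 4.00% lay within 1 kb (3.35 to 5.16% over the 20 offsets) and 2.24% from 9 to 10 kb (1.94 to 2.73%). The listed share was thus 3.17 times the moved share within 1 kb, 2.06 times from 1 to 2 kb, 1.61 times from 4 to 5 kb and 1.23 times from 9 to 10 kb. Over the whole 10 kb, 53.8% of Menin-only peaks qualified, which the rule fixes, against 30.2% at the offsets (26.3 to 37.0%).

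**Figure D1:**
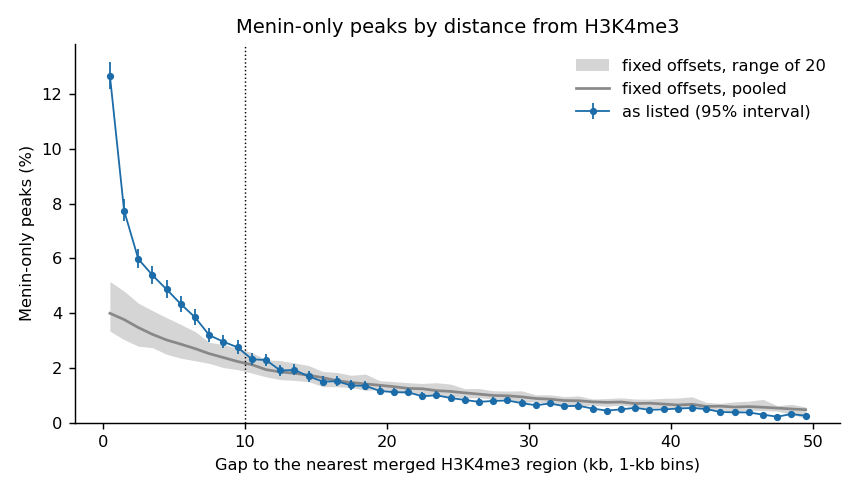
Share of the 17540 autosomal Menin-only peaks (y axis, percent) by the gap to the nearest merged H3K4me3 region (x axis, kb, bins of 1 kb). Points are the peaks as listed with 95% intervals, the grey line is the pooled share and the grey band the range at 20 fixed offsets, and the dotted line is the 10-kb limit. The listed share starts at 12.7% and meets the grey band between 10 and 15 kb.

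Beyond the limit the profile met and then fell below the moved one. From 12 to 15 kb the listed share was 1.02 times the moved share, from 20 to 30 kb 0.806 times and from 50 to 100 kb 0.4997 times. Both profiles are shares of a whole, so an excess near the regions entails a deficit farther out, which is no separate result. The 2 peaks just inside the limit lay 9999 bp from their regions, with Menin fold enrichments of 7.15 and 14.2, and the 2 just outside lay 10004 bp away, with folds of 11.5 and 7.61. Peaks from 9 to 10 kb and from 10 to 11 kb had median folds of 8.84 and 8.85 and median widths of 535 and 511 bp. The size of the ratio depended on how local the offsets were. It was 2.52 within 1 kb and 1.46 within 10 kb with offsets of 50 kb alone, and 3.72 and 2.03 with offsets of 500 kb alone.

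Within the nearest kb the density increased further towards the region. The first 250 bp held 658 members, the second 615, the third 524 and the fourth 427, at 3.76, 3.39, 3.03 and 2.48 times the moved shares. Many of these had another Menin peak close by. Of the 2224 members within 1 kb, 1266 (56.9%, 54.8 to 59.0%) had a further Menin peak within 500 bp, against 31.7% of all members, and their median gap to the nearest other Menin peak was 406 bp. The deposited lists give called peaks and not the signal between them, and whether such neighbours are separate sites or parts of a wider enrichment was not tested. With every Menin-only peak that had a Menin neighbour within 500 bp left out, the ratio to the moved peaks within 1 kb was 1.87 in place of 3.17, and the ratio within 10 kb was 1.64 in place of 1.78. The filter used the listed positions only, and moved peaks that came to lie near a Menin peak were kept. As most regions hold Menin of their own, part of this decrease follows from the filter itself.

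The members were weak Menin peaks, and their fold hardly followed distance. Fold enrichment is the authors' ratio of ChIP tags to the background that the peak caller estimated. Its median among members was 8.44 (quartiles 7.36 and 9.84), with a median width of 565 bp and a median of 18 tags. Menin peaks on a merged H3K4me3 region had a median fold of 11.1, a width of 1372 bp and 82 tags. A score of at least 100, where the score is minus 10 times the log10 of the caller's p, was reached by 1884 members, or 20.0% (19.2 to 20.8%), against 51.1% of all autosomal Menin peaks. A fold of at least 10 was reached by 23.1% of members against 41.2% of all autosomal Menin peaks, and a width above 1000 bp by 10.4% against 39.6%. The rule leaves out peaks that overlap H3K4me3 or Mll2, which wider peaks do more easily, so the width comparison is in part fixed by it.

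From the nearest to the farthest kb the median fold went from 8.29 to 8.84 and the median width from 586 to 535 bp. Across members Spearman's rho with the gap was 0.048 for fold and -0.094 for width, a description over 9429 peaks of 1 library that share its depth and input. In the nearest kb 22.9% of members reached a score of 100, and in the farthest kb 15.9% did.

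**Figure D2:**
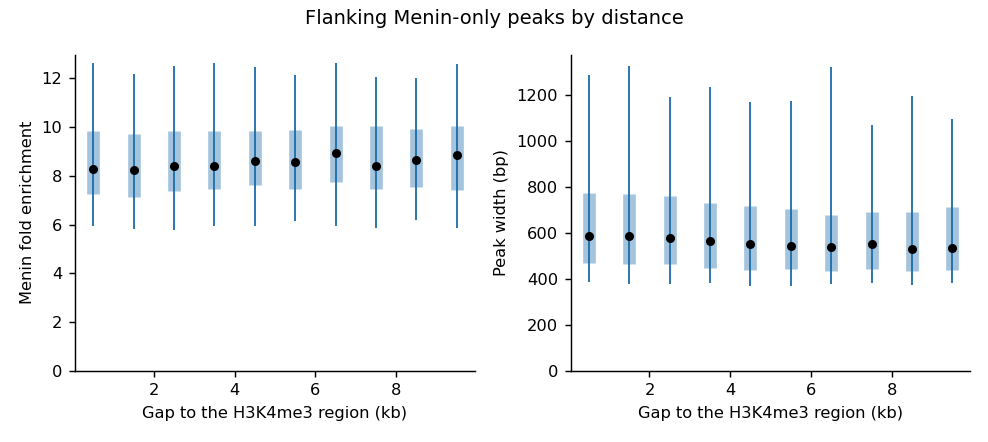
Deposited Menin fold enrichment (left, a ratio) and width (right, bp) of the 9429 members by their gap to the nearest merged H3K4me3 region (x axis, kb, bins of 1 kb). Points are medians, thick bars the quartiles and thin lines the 5th to 95th percentiles. Median fold stays between 8.22 and 8.94, and median width goes from 586 bp in the nearest bin to 535 bp in the farthest.

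Members and distal Menin-only peaks had nearly the same fold and differed more in width and score. The median fold was 8.72 for distal peaks (interval of the median 8.62 to 8.83) and 8.44 for members (8.35 to 8.52), a ratio of 0.968. With isolated H3K4me3 regions alone the ratio was 1.02, with an interval of 0.997 to 1.03 that includes equal medians. In that setting peaks beside the other H3K4me3 regions counted as distal, so the groups differ from those defined above. The ratio was 1.01 with Menin peaks of at least 10-fold enrichment, which selects both groups on the measure compared and so says nothing about the direction. Members were wider, with a median of 565 bp (559 to 569) against 506 bp (502 to 511), and 20.0% of them reached a score of 100 against 12.98% (12.3 to 13.7%) of distal peaks. Above 1000 bp in width were 981 members and 435 distal peaks, which is 10.4% (9.79 to 11.04%) and 5.36% (4.88 to 5.88%).

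Menin-only peaks of higher score and of greater width were nearer to H3K4me3 than the others, while a higher fold made little difference. Of those with a score of at least 100, 17.4% (16.0 to 18.8%) lay within 1 kb, 3.90 times the share of the same peaks when moved, against 11.7% (11.2 to 12.3%) and 3.00 times for a lower score. For peaks wider than 1000 bp the share was 18.8% (16.8 to 20.9%) and the ratio 3.99, against 12.1% (11.6 to 12.7%) and 3.08 for narrower peaks. With a fold of at least 10 the ratio within 1 kb was 3.19, against 3.17 for all Menin-only peaks. A wider peak has its edge nearer to its surroundings, and the moved peaks keep their widths.

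The strongest members reached folds well above the median. The highest fold, 29.9, belonged to a peak on chromosome 12 from 31607158 to 31607687 in build mm9. It held 40 tags and lay 9421 bp from a region with H3K4me3 folds of 60.0 and 60.5 in replicates 1 and 3 and an own Menin fold of 14.6. It was the only member within 10 kb of that region. The second, on chromosome 16 from 94086825 to 94088139, had a fold of 25.4 and 107 tags at a gap of 403 bp. Its region carried weak H3K4me3, with folds of 12.2 and 17.4, and Menin at 29.6.

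On chromosome 19 a member from 44815563 to 44817543 had a fold of 25.04 and 169 tags and lay 3407 bp from a region of 766 bp with H3K4me3 folds of 8.87 and 6.32. That region held Menin at 25.4 and serum 9172 at 8.95, and no serum 9175 peak. On chromosome 9 a member from 91273024 to 91274499 had a fold of 24.6 and lay 1358 bp from a region with H3K4me3 folds of 16.2 and 17.8 and Menin at 19.4. On chromosome 6 a member from 52202422 to 52204509 had a fold of 24.9 and 185 tags at a gap of 5043 bp, beside a region with H3K4me3 at 30.2 and 27.8 and Menin at 26.8, which had 5 members in all. Of these 5 strongest members, 3 were weaker in fold than the Menin peak of their own region, and those on chromosomes 12 and 9 were stronger.

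The members with the most tags were of another kind. A peak on chromosome 11 from 3030660 to 3038143 gathered 1464 tags over 7484 bp at a fold of only 2.79, and a neighbour from 3026828 to 3028095 had 219 tags at a fold of 3.73. Both lay beside the same H3K4me3 region. No artefact list was applied here, and whether these peaks are such sites was not tested. The next, on chromosome 4 from 154013944 to 154017056, had 214 tags at a fold of 20.9.

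Among all members the fold did not follow that of the Menin peak on the nearest region. That region held Menin for 9076 of 9429 members, and its Menin fold was a median of 1.44 times the member's (quartiles 1.08 and 1.95). The member was the weaker of the pair in 80.3% of cases (79.5 to 81.1%). Spearman's rho between the folds was 0.082 and Pearson's r of the log2 values 0.10 across those 9076 pairs, which share a library and in part a region.

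Seen from the mark, 7096 of 18336 regions, or 38.7% (38.0 to 39.4%), had a member within 10 kb. Moved Menin-only peaks flanked 21.1% (18.2 to 25.9% over the 20 offsets). After the removal of moved peaks, 15677 to 16224 remained at an offset against 17540 listed, and shares of regions were not rescaled for this. The ratios by region here and below are therefore raised, more so for higher numbers of members. A single member flanked 3697 regions, 2 members 1721, 3 members 927, 4 members 438, and 5 or more 313. The excess over the offsets grew with the number, from 1.83 times for at least 1 member to 2.29 times for at least 2, 2.78 for at least 3 and 3.81 for at least 5. A flanked region had 1.89 members on average, against 1.63 (1.59 to 1.65) at the offsets. The flanked share moved with the stringency of the Menin list. It was 12.1% with Menin scores of at least 100, 13.7% with folds of at least 10, and 23.3% among regions without another region within 20 kb.

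**Figure D3:**
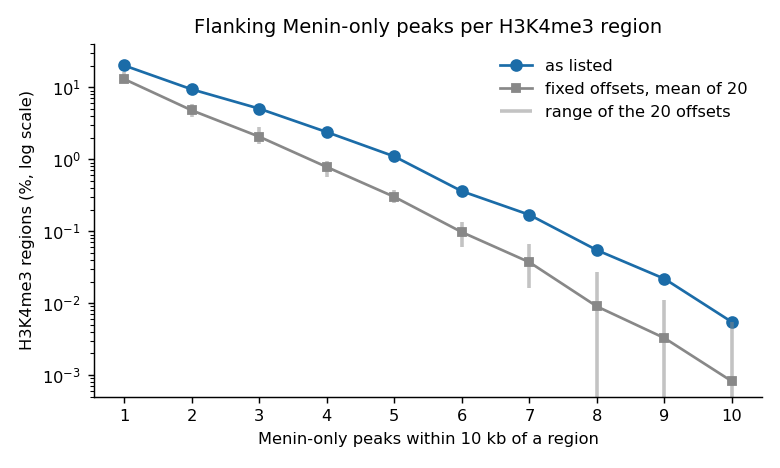
Share of the 18336 merged H3K4me3 regions (y axis, percent, log scale) by the number of Menin-only peaks within 10 kb (x axis). Blue points are the peaks as listed, grey squares the mean of 20 fixed offsets and grey bars their range, which reach the lower frame where an offset gave 0 regions. The listed share lies above the mean of the offsets at every number from 1 to 10.

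The regions with the most members, outside chromosome 18, had Menin-only peaks on both sides. A region on chromosome 4 from 149110725 to 149112872 carried strong H3K4me3 (folds of 94.2 and 64.6), Mll2 (25.4 with serum 9172 and 39.1 with serum 9175) and Menin at 14.4, and had 9 members. Those on its lower side lay 9138, 7191, 4824, 3368, 2262 and 115 bp away with folds of 10.3, 12.9, 10.9, 8.04, 8.94 and 6.95, and those on its upper side 2584, 4106 and 5812 bp away with folds of 8.04, 12.6 and 11.4. Their tags ran from 12 to 38 per peak, and none had a fold above the Menin peak on the region.

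On chromosome 10 a region from 79500809 to 79503299, with H3K4me3 folds of 47.4 and 89.4 and Menin at 10.1, also had 9. They began 394 bp from one edge and 1019 bp from the other, and 8 of the 9 had folds between 6.26 and 7.58. The other had a fold of 13.4 over 1824 bp with 70 tags, above the Menin of the region, and the widest of the 9 measured 2416 bp with 116 tags. The same number was reached by weak regions. On chromosome 11 a region of 1085 bp from 102067509 to 102068593 had H3K4me3 at only 8.32 and 9.74 and Menin at 13.7, with 7 members on its lower side and 2 on its upper. Another on chromosome 11, from 98801893 to 98804255, had H3K4me3 at 21.95 and 14.2 and Menin at 9.99, and each of its members had further H3K4me3 regions within 10 kb. The last, on chromosome 11 from 113569449 to 113572570, had 8 members at folds of 6.93 to 13.8 beside H3K4me3 at 12.2 and 10.2. Strong and weak marks were thus both found among the most densely flanked regions.

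Members had no preferred side in genome coordinates, with 4741 before and 4688 after their nearest region, and strand was not considered. Of flanked regions 28.5% (27.5 to 29.6%) had members on both sides, 2530 regions on the lower side alone and 2542 on the upper side alone. Where the lower side was flanked, the upper side was flanked in 44.4% of regions (43.0 to 45.9%), and where it was not, in 18.4% (17.8 to 19.1%). The moved peaks differed in the same direction at lower levels, 34.96% (32.8 to 36.1%) and 9.61% (8.13 to 12.3%). The median spacing of successive members on a side was 1234 bp, with quartiles of 401 and 2791 bp. Of all members 32.6% had more than 1 H3K4me3 region within 10 kb, and so counted for each of these.

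Flanked regions were a little wider and a little weaker in H3K4me3 than the others. Their median width was 2005 bp (1980 to 2033) against 1868 bp (1847 to 1885), a difference of 137 bp, and regions flanked by moved peaks differed by 84.6 bp on average (46 to 132.5 bp). The median H3K4me3 fold was 37.4 against 41.1 in replicate 1 and 31.9 against 35.2 in replicate 3. The differences of -3.75 and -3.33 lay below those of all 20 offsets, which ran from -0.750 to 1.99 and from 0.740 to 4.18. The width difference was 16 bp with Menin folds of at least 10, with an interval of -40.9 to 72.9 bp that includes equal widths. Among isolated regions it was 233.5 bp.

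Width and strength went with the flanked share in opposite directions once separated into quintiles. In each width quintile the flanked share was highest in the weakest regions by replicate 1 fold. In 4 of the 5 strength quintiles it was highest in the widest regions, and in the other, the second weakest, the next widest class stood at 54.3% and the widest at 54.2%. In the widest quintile it went from 64.8% in the weakest quintile, a class of 71 regions, through 53.1% in the middle to 38.9% in the strongest. In the narrowest quintile it was 37.6% in the weakest and 22.2% in the middle. At the offsets the same 5 classes gave 20.6, 25.3, 21.1, 20.05 and 14.7%, so the ratio to moved peaks was 3.15, 2.10, 1.84, 1.88 and 1.51. The widest and strongest class held 1560 regions.

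**Figure D4:**
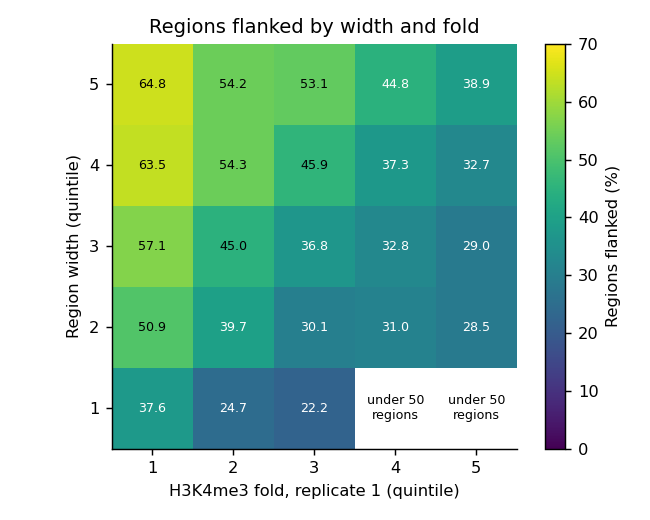
Share of merged H3K4me3 regions flanked by a Menin-only peak (colour and printed value, percent) by quintile of region width (y axis) and of H3K4me3 fold enrichment in replicate 1 (x axis); classes under 50 regions are blank. The share goes from 22.2% in narrow regions of the middle fold quintile to 64.8% in wide, weak ones.

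Along each measure alone the steps were smaller. From the narrowest to the widest decile the flanked share went from 26.4% (24.4 to 28.5%) to 48.4% (46.1 to 50.7%), and from the weakest to the strongest decile of replicate 1 fold from 47.9% (45.6 to 50.2%) to 33.6% (31.4 to 35.8%). Replicate 3 gave 48.9% and 32.5% for its outer deciles. At the offsets the outer width deciles gave 15.5% and 23.0%, so the share of moved peaks increased with width too. The ratio was 1.70 and 2.10 there, and from 1.74 to 1.86 in the width deciles between. For replicate 1 fold the offsets gave 23.2% and 19.5%, with ratios of 2.06 and 1.72. Of the 337 autosomal regions wider than 5000 bp, 55.8% (50.3 to 61.2%) were flanked against 23.5% (15.7 to 33.8%) at the offsets. The widest flanked region, of 14025 bp on chromosome 12 from 87808157 to 87822181, had 1 member at a gap of 3230 bp with a fold of 6.95. The widest without a member, of 9588 bp on chromosome 13 from 23521635 to 23531222, held Menin at 15.7 and Mll2 at 27.5 and 28.6.

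**Figure D5:**
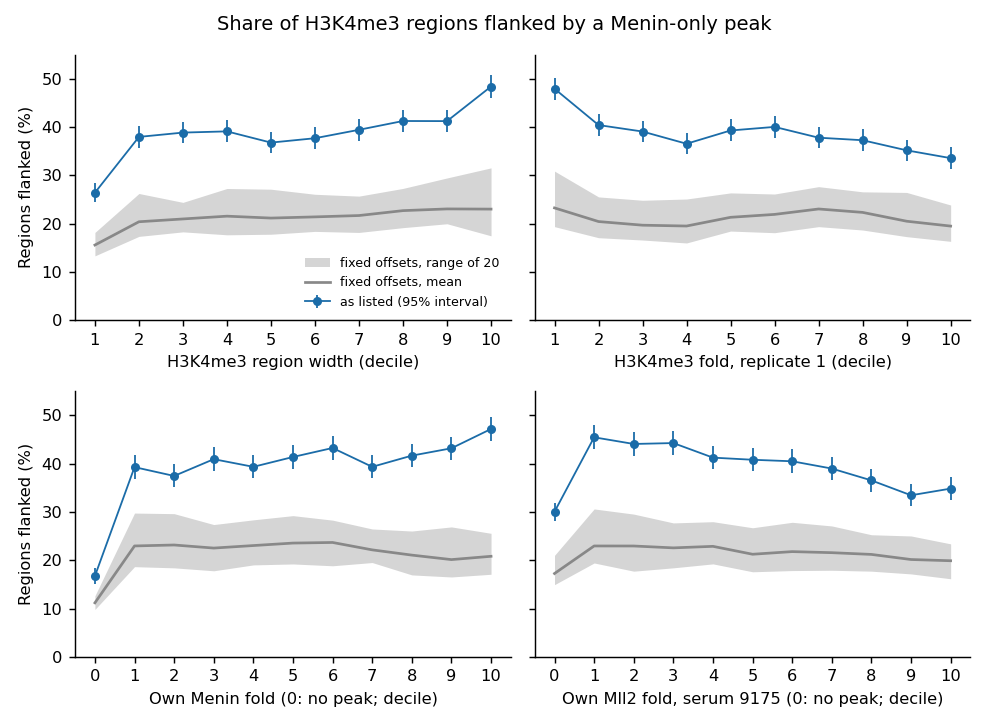
Share of merged H3K4me3 regions with a Menin-only peak within 10 kb (y axes, percent) by decile of region width, of H3K4me3 fold in replicate 1, of the region's own Menin fold and of its own Mll2 fold with serum 9175, where 0 stands for regions without such a peak. Blue points have 95% intervals, and grey lines and bands are the mean and range of 20 fixed offsets. Regions without an own Menin peak have the lowest share, 16.7%.

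Flanked regions held Menin of their own more often than unflanked ones. Menin was present at 6770 of 7096 flanked regions, or 95.4% (94.9 to 95.9%), against 89.4% of all regions and 85.6% (84.9 to 86.2%) of the unflanked. The difference of 9.84 percentage points exceeded that of all 20 offsets, whose mean was 6.32 (5.41 to 7.68). It was 18.5 points when replicate 1 alone defined the regions. Menin was present at 93.8% of regions with 1 member, 96.5% with 2, 97.0% with 3, 99.1% with 4 and 98.7% with 5 or more. The nearest region held Menin for 96.8% of members within 1 kb and 95.9% of those from 9 to 10 kb.

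Without an own Menin peak 16.7% (15.1 to 18.5%) of regions were flanked, 1.50 times the offsets' share. The flanked share was 39.3% (36.9 to 41.7%) in the lowest decile of own Menin fold and 47.2% (44.8 to 49.6%) in the highest. At the offsets these deciles gave 23.0% and 20.8%, so the ratio went from 1.71 to 2.27. Among regions with 2 or more own Menin peaks 54.4% (52.3 to 56.5%) were flanked, and among those with 1 own peak 39.3% (38.5 to 40.1%). The median own Menin fold was 11.9 in flanked and 11.5 in unflanked regions with Menin, a difference of 0.410 against -0.345 to 0 at the offsets. The members and the regions' own Menin come from the same library and the same peak calling.

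The 3 flanked regions with the strongest H3K4me3 and no own Menin had 1 or 2 members each, of 11 to 14 tags. On chromosome 7 a region from 74792022 to 74793644, with H3K4me3 folds of 81.5 and 38.6 and neither Menin nor Mll2, had 1 member 3637 bp away, at a fold of 11.5 from 11 tags. On chromosome 6 a region from 47730265 to 47732420, with H3K4me3 at 75.9 and 17.8 and Mll2 at 17.4 and 19.7, had 2 members, of 11 and 13 tags and folds of 10.3 and 7.79. Of the strongest flanked regions without Mll2, the first is the region on chromosome 7 named above. On chromosome 17 a region from 24872679 to 24874707, with H3K4me3 at 60.9 and 41.3 and Menin at 8.72 but no Mll2, had 1 member, of 11 tags and a fold of 8.04. On chromosome 4 a region from 135170766 to 135171795, with H3K4me3 at 55.7 and 22.02 and neither Menin nor Mll2, had 1 member 919 bp away, of 24 tags and a fold of 9.40.

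Own Mll2 gave a smaller and less uniform difference. Peaks of both sera were present at 5987 flanked regions, or 84.4% (83.5 to 85.2%), against 81.7% of all regions and 79.9% (79.2 to 80.7%) of the unflanked, a difference of 4.42 percentage points (offsets 2.97 on average, 1.33 to 3.87). A peak of either serum was present at 92.7% (92.1 to 93.3%) of flanked regions, against 89.9% of all regions and 88.1% of the unflanked. The 4.42 points became 2.92 with Menin folds of at least 10, 8.64 when replicate 1 alone defined the regions and 8.88 among isolated regions. Within quintiles of width it was 12.8 points in the narrowest and turned to -1.42, -1.78, -1.54 and -0.910 in the wider ones. The Menin difference kept its sign in these quintiles, from 33.4 points in the narrowest to 0.343 and 0.455 in the 2 widest, where nearly all regions held Menin. In each width quintile flanked regions had the lower median replicate 1 fold, for example 19.1 against 26.1 in the second narrowest. Within quintiles of replicate 1 fold the Menin difference was 27.9 points in the weakest and -0.227 in the strongest. The Mll2 difference went the same way there, with 15.6, 12.8, 3.46, 1.06 and -0.178 points from the weakest to the strongest. Averaged over 25 classes of width and fold together, weighted by their flanked regions, the difference was 8.37 points for Menin and 3.38 for Mll2. Menin was higher in the flanked regions of 20 classes and Mll2 in 16.

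Where Mll2 was present it was weaker beside members. The median fold was 15.3 in flanked and 16.4 in unflanked regions for serum 9172, and 17.1 and 18.8 for serum 9175. The differences of -1.15 and -1.63 lay below those of all 20 offsets (-0.540 to 0.750 and -0.810 to 0). From the lowest to the highest decile of serum 9175 fold the flanked share went from 45.5% (43.0 to 48.0%) to 34.8% (32.5 to 37.2%), and regions without that serum gave 30.05% (28.2 to 31.9%). Serum 9172 gave 43.4%, 35.8% and 32.1%. The ratios to the offsets were 1.98, 1.75 and 1.74 for serum 9175, and 1.96, 1.60 and 1.79 for serum 9172. Regions without a peak of the serum thus had a low share at the offsets as well, 17.3% for serum 9175 and 17.9% for serum 9172. Mll2 of both sera was present at 42.9% of regions in the lowest decile of replicate 1 fold and at 99.7% in the highest, and the parts of H3K4me3 and Mll2 in these differences were not separated.

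Grouped by both proteins, the flanked share was 49.2% (45.5 to 53.0%) in the 711 regions with Menin and no Mll2 of either serum, 41.0% (40.2 to 41.7%) with both, 19.8% (17.1 to 22.7%) with Mll2 alone and 14.6% (12.6 to 16.8%) with neither. The ratios to the offsets were 1.96, 1.85, 1.64 and 1.38. The 711 regions were narrow and weak, with a median width of 1109 bp and a median replicate 1 fold of 11.4, against 2060 bp and 45.4 for those with both.

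Neighbouring H3K4me3 regions also went with members. Of regions with another region within 5 kb 59.0% (57.4 to 60.6%) were flanked, from 5 to 20 kb 51.0% (49.7 to 52.4%) and farther than 20 kb 23.3% (22.5 to 24.2%). At the offsets the shares were 27.0, 27.7 and 14.9%, and the ratios 2.19, 1.84 and 1.56. In peak-rich parts a member can count for several regions.

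Mll2 peaks were found near members too. An Mll2 peak of either serum, which by rule overlaps no member, lay within 1 kb of 24.0% (23.1 to 24.9%) of members and of 9.21% (8.59 to 9.86%) of distal peaks, which by rule lie farther from H3K4me3. For 3017 members, or 32.0%, the nearest Mll2 peak was closer than the H3K4me3 region. For 994, or 10.5%, an H3K4me3 peak outside the merged regions was closer.

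Other peaks outside the merged H3K4me3 regions also gathered beside them, and all but the last class below overlapped no H3K4me3 peak. Moved peaks that hit a merged region were left out in this comparison, which sets Menin-only peaks at 3.02 times within 1 kb and 1.74 times within 10 kb. The listed peaks of each class were also chosen by their overlap with Menin, Mll2 or H3K4me3 peaks, and the moved peaks were not. The sizes of the ratios can therefore not be ranked between classes. For the 1536 sites with Mll2 of both sera and Menin the ratios were 2.89 and 1.79, and for the 1436 with Mll2 of both sera alone 2.49 and 1.67. Mll2 peaks of a single serum had 1.79 and 1.51 (serum 9172, 2467 peaks) and 1.41 and 1.33 (serum 9175, 2466 peaks). For the 2779 H3K4me3 peaks of replicate 1 alone, without Mll2 or Menin, they were 4.41 and 1.60. Nearness to the regions was thus found in each of these classes, and was not particular to Menin-only peaks. Of Menin-only peaks 12.7% lay within 1 kb, of Mll2 sites with Menin 10.9% (9.36 to 12.5%), and of Mll2 sites of both sera alone 6.06% (4.88 to 7.42%).

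Chromosomes differed in their number of Menin-only peaks more than in the share of these peaks that were members. That share was 50.3% on chromosome 8 and 44.7 to 63.2% on the other autosomes. Per H3K4me3 region there were 1.62 Menin-only peaks on chromosome 8 and 0.527 to 1.24 on the other 18 autosomes. The flanked share of regions was 54.9% on chromosome 8 and 21.2 to 51.6% elsewhere, and its ratio to the offsets was 1.78 and 1.65 to 2.56. Mll2 peaks per region were also most numerous on chromosome 8, at 1.66 with serum 9172 and 1.69 with serum 9175 against at most 1.49 and 1.51, while H3K4me3 replicate 1 peaks were not, at 1.35 against 1.29 to 1.42. Tags per kb divided by fold, a rough stand-in for the caller's background, had a median of 4.68 at Menin-only peaks of chromosome 8 and 3.58 to 3.77 on the others. The part of that background in the counts of chromosome 8 was not tested. Without chromosome 8 the ratio to moved peaks was 3.21 within 1 kb and 1.78 within 10 kb, and 37.7% of regions were flanked.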

How the data were processed

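ChIP-seq peak lists of 5 libraries were used (H3K4me3 antibody 28, replicates 1 and 3, Mll2 sera 9172 and 9175, and Menin). MACS 1.4.2 made each list from a ChIP library and its input at a p cutoff of 1e-05, and at most 1 tag was kept at a position, per the file headers. Both Mll2 lists show an equal input depth, 20878021 tags. The submitters' processing notes name Bowtie 0.12.9 and mm9. In the deposited lists the tag counts are raw counts, fold enrichment is a ratio to the estimated background, the score is minus 10 times log10 of p, and the false discovery rate is in percent. Folds depend on depth and input and were compared only within a list.

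Peaks were compared in Python 3.11.15 (numpy 2.4.6, pandas 2.3.3, scipy 1.17.1, figures matplotlib 3.10.9), with overlap of at least 1 bp and gaps measured edge to edge. The highest fold stood for a region with several peaks of a list. Shares have exact Clopper-Pearson intervals, and intervals of medians come from binomial order statistics. The gap and offset steps were tested on simulated peaks. Named sites, outside chromosomes 18 and X, came from the 5 members of highest fold, the 3 with the most tags, the 5 regions with the most members, the 3 strongest flanked regions without Menin and without Mll2, the 3 widest with and without members, and 2 peaks on each side of the limit, and the text gives a selection. Alternatives covered the limit, Menin thresholds, overlap, summits, isolated regions and single libraries. The members, rules and alternatives were chosen with earlier results of these data known. An mm9 genome or annotation was not used here, so genes and sequences are not given, and the other samples were not analysed here.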

Additional observations from a re-analysis of the deposited data

How the results depend on the processing

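Of 99 alternative values over 7 results, 54 stayed within the interval of the reported value, 43 moved beyond it in the same direction and 2 reversed. The reversals were in the ratio of the median Menin fold of members to distal peaks, 0.968 as reported. It was 1.02 with isolated regions, where peaks beside the other regions counted as distal. With Menin folds of at least 10 it was 1.01 (0.995 to 1.02), where both groups were selected on the fold itself. The ratio to moved peaks within 10 kb, 1.78, was 2.10 with a limit of 5 kb and 1.50 with 20 kb, 1.98 with scores of at least 100, 1.83 with an overlap of at least 50%, 1.57 without gaps under 1 kb and 1.46 with isolated regions. It was 1.46 and 2.03 with offsets of 50 and 500 kb alone, 1.64 without Menin neighbours within 500 bp, and 1.74 to 1.80 with either H3K4me3 replicate left out. Within 1 kb the ratio of 3.17 became 3.90 with scores of at least 100, 3.93 with 50% overlap (where partly overlapping peaks have no gap by construction), 3.35 from summits and 3.04 with isolated regions. It was 2.52 and 3.72 with the near and far offsets, 1.87 without Menin neighbours, and 3.12 to 3.29 with either replicate left out. The filter on Menin neighbours did not cover moved peaks, which in itself lowers the 1.64 and 1.87. With 50% overlap, listed peaks that overlapped less were kept, while moved peaks with any overlap were left out. The 1.83 and 3.93 thus set listed and moved peaks under unlike rules.

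The flanked share of regions, 38.7%, was 27.8% and 49.9% with limits of 5 and 20 kb, 12.1% with scores of at least 100, 13.7% with folds of at least 10 and 39.8% with 50% overlap. It was 39.99% and 39.8% with serum 9172 or 9175 alone, 34.3% without gaps under 1 kb, 23.3% in isolated regions, 37.7% without chromosome 8, 31.9% without Menin neighbours, and 37.7 to 41.7% with either replicate left out. Flanked regions, wider by 137 bp as reported, were wider by 233.5 bp in isolated regions and by 101 to 187 bp with either replicate left out. With folds of at least 10 the difference was 16 bp, with an interval of -40.9 to 72.9 bp that includes equal widths. The Mll2 difference of 4.42 points was 2.92 with folds of at least 10, 8.88 in isolated regions, and 3.47 to 8.64 with either replicate left out. The Menin difference of 9.84 points was 10.9 with a limit of 20 kb, 13.1 with scores of at least 100, 11.7 with folds of at least 10, 11.1 in isolated regions, 8.01 without Menin neighbours, and 10.4 to 18.5 with either replicate left out. At the score and fold thresholds a region's own Menin peak had to pass as well. The 13.1 and 11.7 points therefore count only own Menin above the threshold, unlike the 9.84. The causes were not tested. The alternatives on chromosome 8, single offset sizes and Menin neighbours were chosen after seeing the data.

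No paired analysis was possible because Menin has 1 library and the results come from no test between samples. The ratio within 1 kb has no value under the other limits or without gaps under 1 kb. Depth limits which weak sites were listed, and the median member rests on 18 tags.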

Other observations

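On chromosome X, which the rule leaves out, 38 of 67 Menin-only peaks lay within 10 kb of a merged H3K4me3 region, or 56.7% (44.0 to 68.8%), against 14.9% when they were moved by the same offsets. Within 1 kb lay 10 of them, 14.9% (7.40 to 25.7%). Of the 555 merged regions of this chromosome 39 had such a peak within 10 kb, or 7.03% (5.04 to 9.48%), while the lowest share among the autosomes was 21.2%. Fewer Menin-only peaks were listed there, 67 for 555 regions, against 0.527 to 1.62 per region on the autosomes. The shares of regions were not adjusted for this.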
